A study of Mus musculus with 6 samples.

Results

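Heat shock proteins and their J-domain partners were described in back skin of mice with and without repeated ultraviolet B (UVB) light. The members were all probes that were not controls and whose gene name in the array files begins with Hspa, Hspb, Hspd, Hspe, Hsph, Hsp90 or Dnaj, a rule that used no measured value. They came to 104 probes of 73 genes, out of 36095 genes and other named targets on the array. All 6 mice were male C57BL/6 animals of 6 to 8 weeks whose backs were shaved. In the UVB group, 3 mice were anesthetized and irradiated on the back at 180 mJ/cm2, 3 times a week for 2 weeks, starting 2 days after shaving. The control group of 3 mice was kept dark and received no UVB, and its labels give no mock session under anesthesia. Each mouse contributed RNA to 1 single-colour Agilent array, so that each group has n = 3. How long after the last session the skin was taken is not stated in the labels. The comparison asks how transcripts differ between irradiated and unexposed skin.

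Proteins of the HSP70 family bind unfolded stretches of client proteins and release them again in a cycle driven by ATP. J-domain proteins bring clients to HSP70 and trigger ATP hydrolysis, and nucleotide exchange factors such as the HSP110 proteins, Hspbp1 and the Bag proteins reset the cycle. HSP90 takes over clients such as kinases and steroid receptors, HSP60 with its lid HSP10 folds proteins inside mitochondria, and small heat shock proteins hold unfolded proteins without ATP. Heat and other proteotoxic stress raise many of these genes through the heat shock factor Hsf1, and the endoplasmic reticulum (ER) has chaperones of its own, which are raised by the unfolded protein response.

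After UVB, few genes of this machinery passed the test, and most of those that did were lower. Of 63 members tested, 8 were lower: Hspa1l, Hsph1, Hsp90aa1, Dnajc25, Dnajb3, Hspa9, Hspbp1 and Dnajc11, by 0.48 to 1.09 on the log2 scale. Higher were 2, the J-domain genes Dnajb5 and Dnaja4, by 0.97 and 0.70, and 53 did not pass (limma, Benjamini-Hochberg adjusted p under 0.05 over 24365 targets). Among all targets tested, 7.01% were lower, against 12.7% of the members, 5.56% were higher, against 3.17%, and 12.6% passed in either direction, against 15.9%. In 32 members, or 50.8%, all 3 UVB arrays lay below all 3 control arrays, against 22.6% of all targets. In 7, or 11.1%, they lay above, against 15.9%, and in 24 the groups overlapped. The difference between the members and all targets was not tested.

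**Figure D1:**
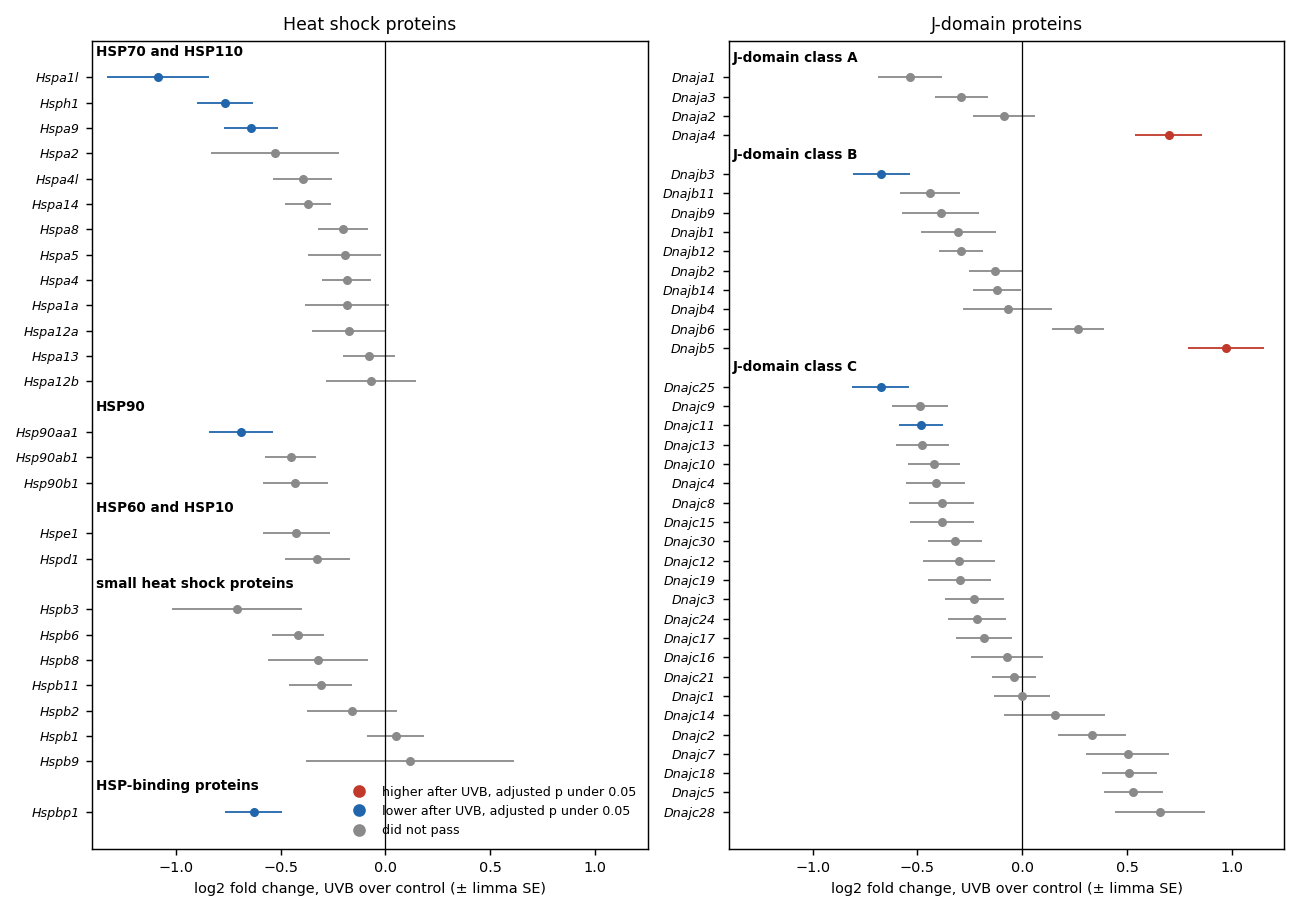
The log2 fold change of UVB over control (x axis, with limma standard errors) of the 63 tested members is plotted by class. Of these, 52 lie left of 0 (49 to 53 under the other scalings), 8 in blue passed as lower and the J-domain genes Dnaja4 and Dnajb5 in red passed as higher.

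Levels are log2 signals relative to the 75th percentile of their own array, and fold changes are differences of their group means with limma standard errors. The median log2 fold change was -0.30 over the members and -0.04 over all targets. All 3 UVB arrays showed the gap. Relative to the control means, the median member stood at -0.30, -0.15 and -0.35 on UVB arrays 1 to 3, against -0.03, 0.02 and -0.004 on the control arrays. The median of all targets lay between -0.06 and 0.03 on the 6 arrays. All 63 tested members were well above background on all 6 arrays, which was not required of the other targets. Centring each array on its median instead moved the median of all targets to -0.15 and that of the members to -0.41. The gap of -0.26 stayed the same by construction, because both scalings subtract a constant per array. With quantile normalization the gap was -0.20, and with normexp background correction -0.36. The deposited table, inferred to be quantile normalized as well, also gave -0.20. Fold changes were small: of the 10 members that passed, 1, Hspa1l, changed by 2-fold or more, and the standard errors of the 63 log2 fold changes ranged from 0.104 to 0.496, with 0.144 as their median.

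**Figure D2:**
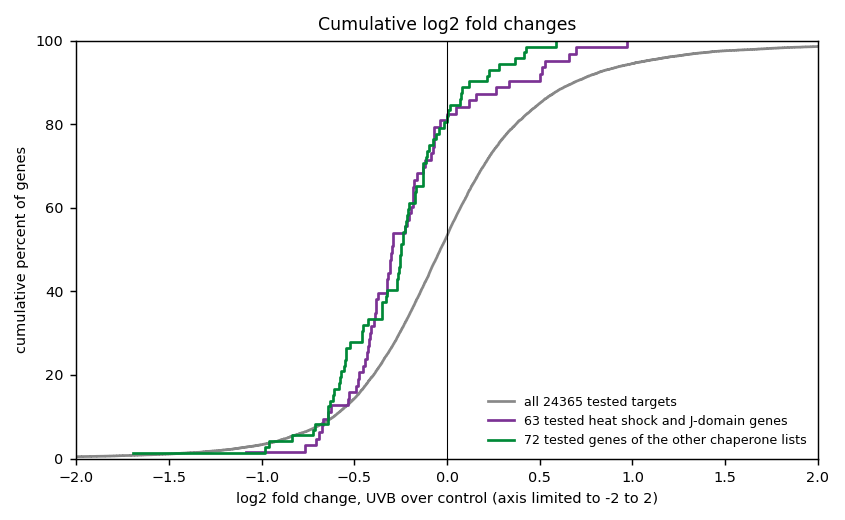
The curves give the percent of genes (y axis) at or below each log2 fold change (x axis, limited to -2 to 2) for all 24365 tested targets, the 63 tested members and the 72 tested genes of the other chaperone lists. At 0 the curve of all targets has reached 53.3%, that of the members 82.5% and that of the other lists 80.6%.

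The tissue was checked by markers. The keratinocyte markers Krt5, Krt14, Krt1 and Krt10 were well above background on all 6 arrays, and none of the 4 passed the test. Their summed linear level was 1815 to 2141 times the 75th percentile in controls and 2298 to 2725 times after UVB. Other cell types differed more: all 6 hair follicle keratins were higher, with a summed level of 1.23 to 2.99 in controls and of 421, 194 and 804 on UVB arrays 1 to 3. All 3 melanocyte markers (2.12 to 2.56 against 14.4 to 22.1) and 2 of 3 fibroblast markers (4.17 to 9.52 against 13.5 to 19.4) were higher, while 3 of 4 leukocyte markers were lower and 1 higher (15.8 to 20.0 against 7.56 to 10.1). The adipocyte markers went apart: Fabp4 was higher at 4.80 ± 0.77, Cfd gave -0.99 ± 0.60 without passing, and Adipoq and Plin1, well above background on 2 and 1 control arrays, were so on 0 UVB arrays. Smooth muscle markers had a summed level of 1.18 to 1.36 in controls and 1.68 to 3.09 after UVB, and neither Acta2 nor Tagln passed. UVB array 2 had both the smallest follicle sum and the smallest median shift of the members. The part of these markers in the results was not tested, and in bulk skin fewer cells of a type and less RNA per cell cannot be told apart.

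Within the HSP70 and HSP110 class, 3 of 13 members were lower, none was higher, and all 13 had negative log2 fold changes, 11 of them under every scaling and 2 (Hspa12a and Hspa12b) with the sign turned under a scaling. The lower share was 23.1%, against 7.01% of all targets, of which 53.3% had negative log2 fold changes. The class median was -0.20. Hspa1l, an HSP70 best known from the testis, had the largest fall. Controls 1 to 3 had levels of -2.39, -3.12 and -2.60, and UVB arrays 1 to 3 of -4.12, -3.55 and -3.70. All UVB arrays were lower than the lowest control, array 2. This gave a log2 fold change of -1.09 ± 0.24 (limma SE with n = 3 in each group, adjusted p = 0.0373). With normexp background correction it was -0.22 and the call was lost (limma adjusted p = 0.34). The probe was dim after UVB: the lowest signals well above background on UVB arrays 1 to 3 were near, at -4.52, -4.19 and -4.52. The probe lies at chr17:35115629-35115688 on the plus strand of mouse build mm9.

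Hspa1l sits beside Hspa1a, the classic heat-inducible HSP70, and the probes of both genes, as given in the array files, are shown because they show how the array tells these paralogs apart. The Hspa1a probe lies at chr17:35107117-35107176 on the minus strand. Capitals mark bases that differ between the probes in an ungapped alignment, in which 42 of 57 aligned bases were identical (73.7%).
Hspa1a: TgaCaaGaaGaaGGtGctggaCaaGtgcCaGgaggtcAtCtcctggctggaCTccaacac
Hspa1l: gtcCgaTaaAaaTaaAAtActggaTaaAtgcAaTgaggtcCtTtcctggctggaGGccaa
The file lists accessions of both Hspa1a and its near-identical copy Hspa1b for the first probe, so that its signal can come from either gene. That signal stood at 2.41, 2.69 and 3.06 in controls and at 2.61, 2.68 and 2.32 after UVB. The groups overlapped, with control 3 highest and UVB 3 lowest. The log2 fold change was -0.18 ± 0.20, with a 95% interval of -0.67 to 0.30 (limma adjusted p = 0.579). That interval leaves out a rise of 2-fold. The difference between the changes of Hspa1l and Hspa1a was not tested.

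Hsph1, the HSP110 that acts as a nucleotide exchange factor for HSP70, had the smallest p of all members. It stood at 2.98, 3.15 and 3.10 in controls and at 2.13, 2.46 and 2.35 after UVB. The groups were well apart, with UVB array 1 lowest. It gave a log2 difference of -0.76 ± 0.13 (limma adjusted p = 0.0199), at chr5:150419744-150419803 (mm9). Hspa9, the HSP70 of mitochondria that also pulls imported proteins across the inner membrane, stood at 3.53, 3.87 and 3.72 in controls and at 3.04, 3.07 and 3.08 after UVB. The 3 UVB arrays lay close together and below every control. The log2 fold change of Hspa9 was -0.64 ± 0.13 (limma adjusted p = 0.0278).

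The constitutive HSP70 genes of the cytosol and the ER did not pass. Hspa8, the HSP70 that is always present in the cytosol, stood at 8.29, 8.19 and 8.30 in controls and at 7.96, 8.18 and 8.02 after UVB. UVB array 2 nearly met control array 2, though the groups did not overlap. That makes a log2 fold change of -0.20 ± 0.12 (limma adjusted p = 0.29). Hspa5, the HSP70 of the ER lumen known as BiP, stood at 5.55, 5.95 and 5.41 in controls and at 5.42, 5.34 and 5.57 after UVB. Those groups overlapped, and the log2 fold change was -0.20 ± 0.17, with a 95% interval of -0.61 to 0.22 (limma adjusted p = 0.486). The remaining members of the class lay between -0.53 (Hspa2) and -0.07 (Hspa12b), and Hspa14 (-0.37), Hspa4l (-0.40) and Hspa4 (-0.18), named after their values were seen, were lower on every UVB array than on any control array without passing.

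All 3 HSP90 genes had lower levels on every UVB array than on any control array, as did 22.6% of all targets. Of the 3, 1 passed as lower (33.3%, against 7.01% of all targets). Hsp90aa1, the stress-inducible cytosolic form, stood at 4.83, 5.22 and 4.86 in controls and at 4.15, 4.38 and 4.32 after UVB. The lowest control lay well above the highest UVB array. The log2 difference was -0.69 ± 0.15 (limma adjusted p = 0.0353), at chr12:111929248-111929307 (mm9). Hsp90ab1, the constitutive cytosolic form, stood at 8.03, 7.91 and 8.07 in controls and at 7.54, 7.68 and 7.42 after UVB, a log2 fold change of -0.45 ± 0.12 (limma adjusted p = 0.062). It passed with quantile normalization (limma adjusted p = 0.028) and with normexp (0.0177). Hsp90b1, the HSP90 of the ER known as GRP94, stood at 5.75, 6.10 and 5.72 in controls and at 5.27, 5.48 and 5.52 after UVB. The log2 fold change of Hsp90b1 was -0.43 ± 0.15 (limma adjusted p = 0.116).

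The mitochondrial pair of HSP60 and HSP10 did not pass. Hspd1 (HSP60) stood at 4.79, 5.27 and 4.95 in controls and at 4.70, 4.71 and 4.62 after UVB, and Hspe1 (HSP10) at 5.29, 5.42 and 5.01 in controls and at 4.83, 4.98 and 4.63 after UVB. In both genes every UVB array was lower than every control, as in 22.6% of all targets, with control array 2 the highest. The log2 fold changes were -0.33 ± 0.15 for Hspd1 and -0.42 ± 0.16 for Hspe1 (limma adjusted p = 0.206 and 0.133). The 3 tested Hspe1 probes gave similar values, from -0.45 to -0.40.

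None of the 7 tested small heat shock proteins passed, against 12.6% of all targets, and the class had a median of -0.31. Hspb1, known as HSP27 and abundant in differentiating keratinocytes, stood at 8.75, 8.64 and 8.97 in controls and at 8.72, 8.92 and 8.86 after UVB. The groups overlapped throughout. Its log2 fold change was 0.05 ± 0.14, with a 95% interval of -0.28 to 0.38 (limma adjusted p = 0.838). The sign of Hspb1 turned with median centring (-0.06) and with quantile normalization (-0.12). It also turned with the deposited table (-0.12), which was inferred to be quantile normalized too. Hspb8, which works with Bag3 in clearing damaged proteins, stood at 4.06, 3.96 and 4.64 in controls and at 3.58, 4.16 and 3.95 after UVB. These values overlapped as well, with a log2 fold change of -0.32 ± 0.24 (limma adjusted p = 0.404). Hspb6 (HSP20), named after its values were seen, was the only small heat shock gene without overlap, at -0.42 ± 0.12 (limma adjusted p = 0.0754). Hspb2, Hspb3 and Hspb6 are best known from muscle, and skeletal muscle markers had a summed level of 3.50, 4.80 and 0.96 in controls and 1.54, 1.88 and 0.78 after UVB, with none of 6 passing. Mylpf never stood well above background, smooth muscle markers had higher sums after UVB, as given above, and the part of muscle in these values was not tested.

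Hspbp1, which frees HSP70 of its nucleotide in the cytosol, was the 1 tested member of the 2 HSP-binding genes. It stood at 2.31, 2.08 and 2.00 in controls and at 1.42, 1.64 and 1.45 after UVB. Every UVB array was lower than the lowest control. Its log2 fold change was -0.63 ± 0.14 (limma adjusted p = 0.0347), at chr7:4612352-4612411 (mm9).

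**Figure D3:**
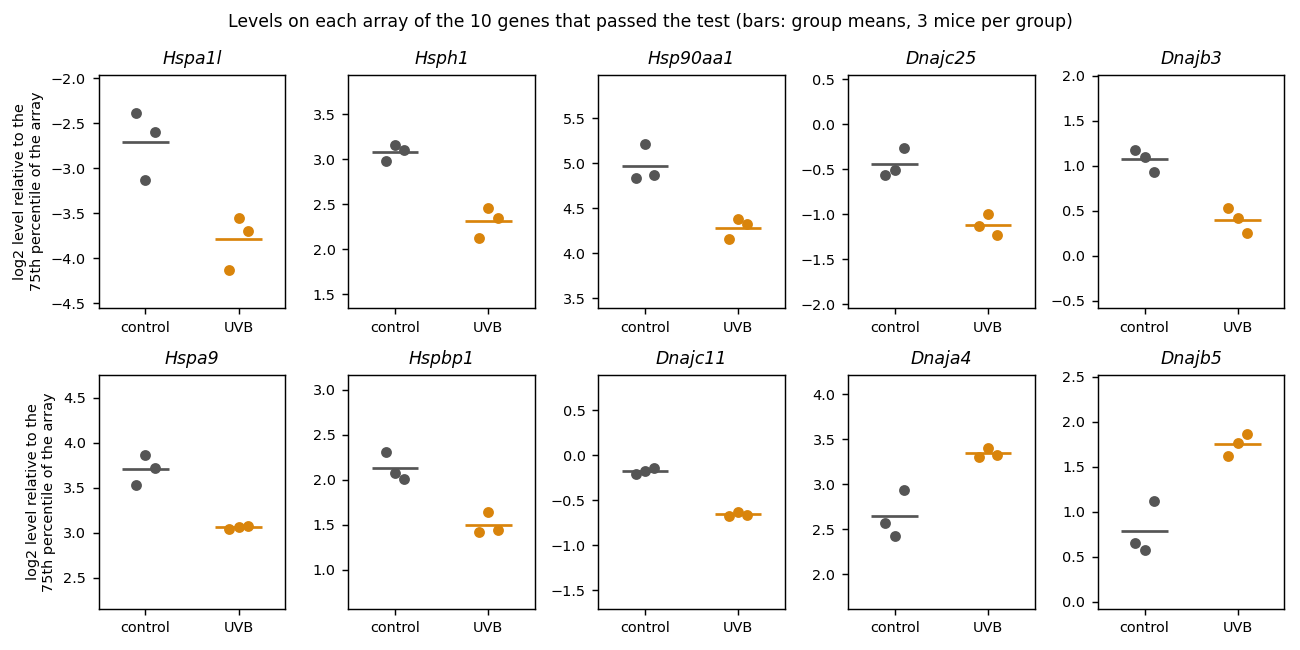
Each panel shows the level of 1 member on the 3 control and 3 UVB arrays (y axis, log2 relative to the 75th percentile of the array, all panels of equal span), with bars at the group means. In the 8 lower and 2 higher genes no UVB point overlaps a control point, which was part of the rule by which the genes were named.

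J-domain proteins are sorted into class A and class B, which share the domain layout of bacterial DnaJ in full or in part, and class C, which share the J domain alone. Of 37 tested J-domain genes, 3 were lower (8.11%, against 7.01% of all targets) and 2 higher (5.41%, against 5.56%), shares near those of all targets. Their median log2 fold change was -0.23. Class A had 1 higher gene of 4, class B 1 higher and 1 lower of 10, and class C 2 lower of 23. In class A and class B no sign turned under the other scalings, while Dnajc1 and Dnajc21, both near 0, changed sign in class C. Heat shock and HSP-binding genes had 5 lower (19.2%) and 0 higher of 26 by the same limma test. At an unadjusted p under 0.05 stood 11 of these 26 (42.3%) and 19 of the 37 J-domain genes (51.4%), against 31.5% of all targets.

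Dnajb5, a class B protein of the HSP40 type, had the largest rise among the members. Its level was 0.65, 0.57 and 1.12 in controls and 1.62, 1.76 and 1.87 after UVB. All UVB arrays were higher than control array 3, the highest control. On the log2 scale it rose by 0.97 ± 0.18 (limma adjusted p = 0.0227), at chr4:42971494-42971553 (mm9). Dnaja4, a class A co-chaperone of cytosolic HSP70, stood at 2.58, 2.43 and 2.94 in controls and at 3.30, 3.40 and 3.33 after UVB. Here too the controls were spread, with array 3 highest, and the UVB arrays lay close together above them. It rose, with a log2 fold change of 0.70 ± 0.16 (limma adjusted p = 0.0398), at chr9:54564061-54564120 (mm9). With median centring it was 0.59 and did not pass (limma adjusted p = 0.0924).

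The other 3 members of class A were not higher. Dnaja1, a main partner of cytosolic HSP70 and HSP90, stood at 5.46, 5.74 and 5.90 in controls and at 5.09, 5.30 and 5.11 after UVB. The groups did not overlap, and the log2 fold change was -0.53 ± 0.15 (limma adjusted p = 0.0703). It passed with normexp (limma adjusted p = 0.0326), while as the mean of its 2 probes it was -0.27 (0.281), with the dimmer probe near 0. Dnaja2 and the mitochondrial Dnaja3 gave -0.09 and -0.29. Dnajb1, the stress-inducible HSP40, stood at 6.02, 6.09 and 6.54 in controls and at 5.84, 6.07 and 5.82 after UVB. Control array 3 was highest, UVB array 2 overlapped the controls, and the log2 fold change was -0.31 ± 0.18, with a 95% interval of -0.73 to 0.12 (limma adjusted p = 0.29). Dnajb3, a class B gene best known from the testis, stood at 1.18, 1.1 and 0.93 in controls and at 0.53, 0.42 and 0.25 after UVB. The groups were apart, and the log2 fold change was -0.67 ± 0.13 (limma adjusted p = 0.028), at chr1:90101307-90101366 (mm9).

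In class C the 2 genes that passed were both lower. Dnajc25, a membrane-bound J-domain protein of the ER known as ERdj7, stood at -0.56, -0.51 and -0.26 in controls and at -1.12, -0.9985 and -1.23 after UVB. Its groups did not overlap, and the log2 fold change was -0.68 ± 0.14 (limma adjusted p = 0.0287), at chr4:59035628-59035687 (mm9). Dnajc11, which belongs to the complexes that shape the inner mitochondrial membrane, stood at -0.21, -0.18 and -0.14 in controls and at -0.67, -0.64 and -0.67 after UVB. Both groups were tight, and the log2 fold change of -0.48 ± 0.10 was the smallest of the 10 that passed (limma adjusted p = 0.0337), at chr4:151355874-151355933 (mm9). As the mean of its 2 probes it was -0.42 and did not pass (limma adjusted p = 0.0661).

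In class C, 12 genes of 23 (52.2%, against 22.6% of all targets) lay below the controls on every UVB array, and 4 (17.4%, against 15.9%) lay above. These counts use the brightest tested probe of each gene. Dnajc5 is counted as above by that probe, though its probes disagree, as given below. Besides Dnajc25 and Dnajc11, the lower side held Dnajc3, Dnajc4, Dnajc8, Dnajc10, Dnajc15, Dnajc19, Dnajc24 and Dnajc30, which did not pass, with values from -0.42 to -0.22. The class C genes given next were named after their values were seen. Also below the controls without overlap were Dnajc9, a histone chaperone (-0.49 ± 0.13, limma adjusted p = 0.0613), and Dnajc13, an endosomal protein (-0.48 ± 0.13, 0.0594). Above the controls stood Dnajc7, which hands clients between HSP70 and HSP90, at 4.34, 3.88 and 3.77 in controls and at 4.74, 4.41 and 4.34 after UVB. The highest control and the lowest UVB array of Dnajc7 nearly met, and its log2 fold change was 0.50 ± 0.20 (limma adjusted p = 0.144). Dnajc18 (0.51 ± 0.13, limma adjusted p = 0.0538) and Dnajc28 (0.66 ± 0.21, 0.0942) did not overlap either. Dnajc28 was dim, at -4.64, -4.47 and -4.88 in controls 1 to 3. The lowest signals well above background on those arrays were near, at -4.77, -5.14 and -4.97. Dnajc2 and Hspa14, partners at the ribosome that receive new proteins, gave 0.33 ± 0.16 and -0.37 ± 0.11, and neither passed (limma adjusted p = 0.213 and 0.0739).

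The following 4 J-domain proteins of the ER did not pass. Dnajb9 (ERdj4), a regulator of the stress sensor IRE1, stood at 0.66, 0.91 and 1.20 in controls and at 0.33, 0.70 and 0.57 after UVB, with overlap, at -0.39 ± 0.18 (limma adjusted p = 0.203). Dnajc3 (p58IPK), a co-chaperone of BiP, stood at 0.90, 0.91 and 0.83 in controls and at 0.41, 0.74 and 0.80 after UVB. No Dnajc3 arrays crossed, and its log2 fold change was -0.23 ± 0.14 (limma adjusted p = 0.321). Dnajb11 (ERdj3) and the disulfide reductase Dnajc10 (ERdj5), named after their values were seen, lay below the controls on every UVB array at -0.44 ± 0.14 and -0.42 ± 0.13 (limma adjusted p = 0.0953 and 0.0766).

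Of the 73 genes, 10 had no probe that was well above background on at least 3 arrays and were not tested. These were Hspb7, Hspbap1, Dnajb7, Dnajb8, Dnajb13, Dnajc5b, Dnajc5g, Dnajc6, Dnajc22 and Dnajc27. None of their 11 probes was well above background on more than 2 arrays, so no fold is given for them.

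Few calls held with 5 arrays. When any 1 array was left out, 0 to 2 members were lower and 0 to 2 higher. The lower share of the members was 0% to 3.17%, against 1.6% to 4.37% of all targets. In each of these fits it lay near or below the share of all targets. The larger share with all 6 arrays, 12.7% against 7.01%, was thus not kept. Hsph1 passed without control replicate 1, UVB replicate 2 or UVB replicate 3, with limma adjusted p between 0.0378 and 0.0881 over the 6 choices. Dnajb5 and Dnaja4 passed without control replicate 3 alone (0.0171 to 0.0879 and 0.0293 to 0.134), Hspa1l without control replicate 2 (0.047 to 0.104) and Hspa9 without control replicate 1 (0.0401 to 0.108). The other 5 did not pass without any 1 array, with limma adjusted p from 0.0504 for Dnajb3 without 1 array to 0.129 for Dnajc11. Without a filter on dim probes, which tests more targets, Dnajb5 and Hsph1 alone passed among the same 63 members. The members without a tested probe in the main fit were not counted there. In that fit 1.59% of the 63 were lower, against 2.94% of all targets, dim ones included, so these shares are of unlike sets. All 10 kept their sign in each of these fits, and the median of the members ran from -0.34 to -0.24 with 1 array left out.

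Probes of the same gene were also compared. Of 21 members with over 1 tested probe, 13 had all probes on 1 side of 0 and 8 on both sides. Adjusted over all 33775 tested probes, of which 5.08% were higher and 6.1% lower, 3 of 92 tested member probes were higher and 9 lower. Both probes of Dnaja4 were higher, at 0.70 ± 0.16 and 0.75 ± 0.17 (limma adjusted p = 0.044 and 0.0411), the second of them a dim probe. The second probe of Dnajb5 stood at 0.48 ± 0.13 (limma adjusted p = 0.064) and that of Hsph1 at -0.48 ± 0.15 (0.0844). For Hspa8 the 2 probes that did not stand for the gene gave -0.60 ± 0.24 and -0.49 ± 0.13, both more negative than the brightest probe, without passing (limma adjusted p = 0.154 and 0.0597).

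**Figure D4:**
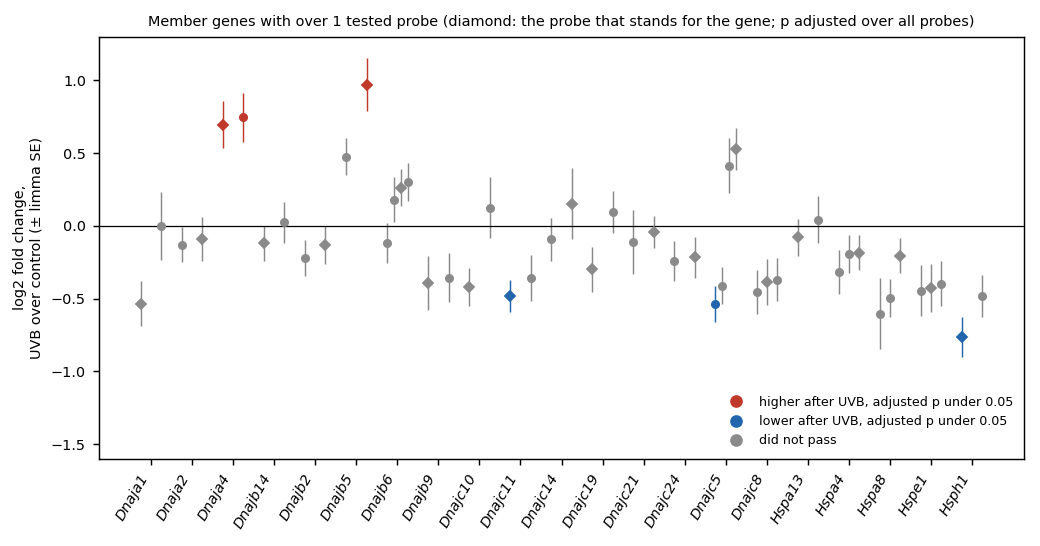
The log2 fold change of each tested probe (y axis, with limma standard errors) is plotted for the 21 members with over 1 tested probe, with a diamond for the probe that stands for the gene. Both Dnaja4 probes and the brightest Dnajb5 probe are higher, and the 4 Dnajc5 probes spread from -0.54 to 0.53.

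Dnajc5, which encodes the cysteine string protein of secretory vesicles, had probes that disagreed. Its brightest probe, at chr2:181286885-181286944 (mm9), stood at 7.17, 7.20 and 7.16 in controls and at 7.93, 7.52 and 7.67 after UVB. That probe was higher on every UVB array, at 0.53 ± 0.14 in the fit over all probes (limma adjusted p = 0.063). The probe at chr2:181283486-181283545 stood at -0.63, -0.74 and -0.67 in controls and at -1.30, -1.07 and -1.27 after UVB. It was lower on every UVB array, at -0.54 ± 0.12, and passed (limma adjusted p = 0.0437). Another probe in between, starting at 181284236, gave -0.41 ± 0.13 (limma adjusted p = 0.0861), and the one nearest the gene start gave 0.41 ± 0.19 (0.194). The brightest probe holds the 14 bases CCAGGACAGCCAGG, a stretch that resembles the SINE B1 repeat, and 9 probes of the array hold them (0.0162%). That stretch was picked as the one of the brightest probe found on the most array probes, with matches on either strand counted. The other 8 of the 9 probes were all tested, had log2 fold changes of 0.10 to 0.52, and did not pass. In 5 of them all UVB arrays lay above all controls, against 15.9% of all targets. The part of this repeat in the Dnajc5 signal was not tested, and no direction is given for the gene.

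Regulators, co-chaperones and other folding machines were counted from lists beside the members. Of 74 listed genes, 72 were tested, 13 were lower (18.1%, against 7.01% of all targets) and 1 was higher (1.39%, against 5.56%). The median was -0.25, and in 36, or 50%, all UVB arrays lay below all controls, against 22.6% of all targets. In 3, or 4.17%, they lay above, against 15.9%. Without any 1 array, 1 to 4 of them were lower and 0 higher by the same limma test.

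The heat shock factors included 1 lower gene of 3 tested (33.3%, against 7.01% of all targets). Hsf2, which binds heat shock elements with Hsf1, stood at 1.59, 1.28 and 0.98 in controls and at 0.10, 0.44 and 0.42 after UVB. All UVB arrays were below control array 3, the lowest control, and the log2 fold change was -0.96 ± 0.19 (limma adjusted p = 0.0288). Hsf1, the main activator of the heat shock genes, named after its value was seen, gave -0.35 ± 0.12 without overlap and did not pass (limma adjusted p = 0.108).

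Of 24 tested co-chaperones, 3 were lower (12.5%, against 7.01% of all targets) and 1 higher (4.17%, against 5.56%). Fkbp4 (FKBP52), a partner of HSP90 in steroid receptor complexes, stood at 1.09, 1.08 and 1.08 in controls and at 0.09, 0.23 and -0.01 after UVB. The controls were nearly equal and far above the UVB arrays, and the log2 fold change was -0.98 ± 0.12 (limma adjusted p = 0.00683). Among the named genes, Fkbp4 alone passed whichever array was left out (limma adjusted p = 0.0169 to 0.0387). Stip1 (HOP), which links HSP70 to HSP90, stood at 2.38, 2.41 and 2.58 in controls and at 1.76, 1.97 and 1.80 after UVB, at -0.62 ± 0.12 (limma adjusted p = 0.0288). Ppid, another immunophilin partner of HSP90, was lower at -0.55 ± 0.12 (limma adjusted p = 0.0361), and Bag2, an inhibitor of the ubiquitin ligase Stub1 (CHIP), was higher at 0.58 ± 0.13 (0.0352). Bag3, named after its value was seen, lay near 0 at 0.08 ± 0.15, with the sign turned under a scaling.

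Of the alpha crystallins, small heat shock proteins of the eye lens and of muscle, Cryaa was lower. Its level was -0.93, -0.41 and -0.03 in controls and -2.35, -2.37 and -1.73 after UVB. The arrays of each group were spread but apart, and the log2 fold change was -1.69 ± 0.28 (limma adjusted p = 0.0176). Cryab, named after its value was seen, gave -0.83 ± 0.41, with overlap (limma adjusted p = 0.224). Of the 15 tested subunits of the cytosolic chaperonin and prefoldin, Cct4 alone passed, at 4.01, 4.16 and 4.22 in controls and 3.44, 3.69 and 3.59 after UVB. Its log2 fold change was -0.56 ± 0.13 (limma adjusted p = 0.0401), and the list had a median of -0.27. The lower share of that list, 6.67%, was near the 7.01% of all targets. Of 8 mitochondrial genes, Trap1, the HSP90 of mitochondria, was lower alone (12.5%, against 7.01% of all targets). Trap1 stood at 1.32, 1.44 and 1.48 in controls and at 0.78, 0.98 and 0.55 after UVB. Its log2 fold change was -0.64 ± 0.15 (limma adjusted p = 0.0391), and with median centring Trap1, Cct4 and Calr did not pass.

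Of 20 ER folding and unfolded protein response genes, 6 were lower (30%, against 7.01% of all targets) and none higher (against 5.56%). Under every scaling 17 of 20 lay below 0, and the median was -0.30. In the main fit 85% lay below 0, against 53.3% of all targets. Sil1, the nucleotide exchange factor of BiP, stood at 2.90, 2.98 and 2.99 in controls and at 2.40, 2.27 and 2.48 after UVB, with no overlap, at -0.57 ± 0.12 (limma adjusted p = 0.0289). Calr, the lectin chaperone calreticulin, stood at 4.59, 4.85 and 4.83 in controls and at 4.13, 4.30 and 4.09 after UVB, at -0.58 ± 0.13 (limma adjusted p = 0.0389). Hyou1, the HSP110 of the ER, the disulfide isomerases Pdia6 and P4hb, and the secreted factor Manf were lower as well, from -0.72 to -0.63. The stress transcription factors did not pass: Atf6 gave -0.33, Xbp1 -0.26, Ddit3 -0.17 and Atf4 -0.08, values named after they were seen.

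**Figure D5:**
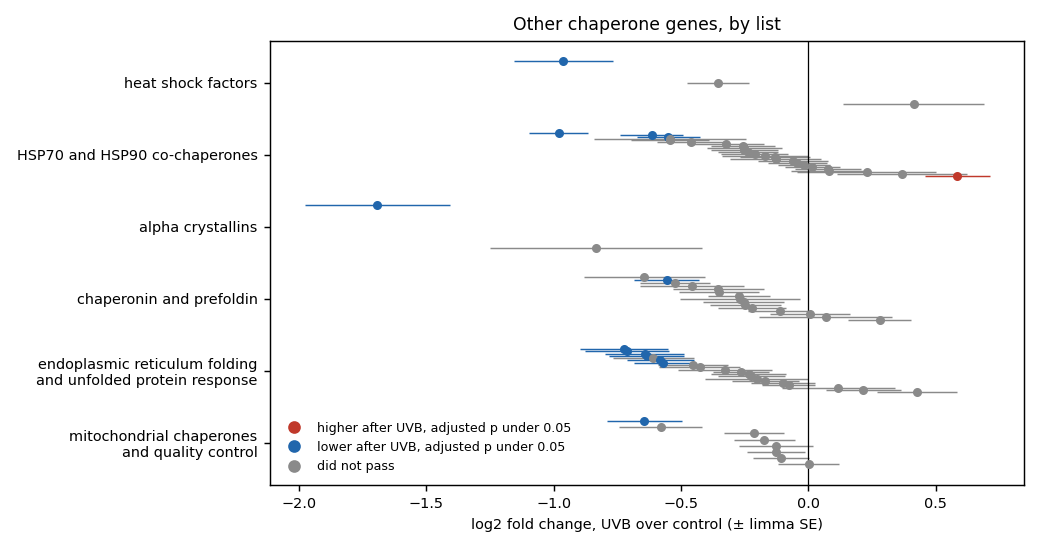
The log2 fold change of UVB over control (x axis, with limma standard errors) of the 72 tested genes on the other chaperone lists is plotted by list. The 13 genes in blue passed as lower, 6 of them in the ER list, and Bag2 in red passed as higher.

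Promoters of the members were searched for the elements these 2 stress pathways are known to use, in windows from 250 bases before to 50 after each annotated start (RefSeq, build GRCm38.p6), which 59 of the 73 members had. The heat shock element was searched as GAANNTTCNNGAA on both strands. An exact match was found in 4 members, Hspe1, Hspd1, Dnajb6 and Hsph1, and in 1 gene of the other lists, Chordc1. Of 27025 genes with a window, 0.662% held an exact match. Forms with other letters at the fixed positions were not searched, so a gene without a match can still hold such a form. The stretches are shown because the genes behind them stood on both sides of 0, with the fixed letters of the element in capitals. Hspd1 and Hspe1 face away from each other and share the same stretch, which holds overlapping matches. The match of Hsph1 lies after its start, those of Chordc1 lie across or after its start, and neither is shown. Hspe1 is taken from chr1:55088042-55088091 and Dnajb6 from chr5:29735833-29735882, both on the plus strand.
Hspe1: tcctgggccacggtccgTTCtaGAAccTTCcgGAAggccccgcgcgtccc
Dnajb6: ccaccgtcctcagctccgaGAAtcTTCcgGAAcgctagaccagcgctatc
Next to these stretches, Hspe1 gave -0.42 ± 0.16 and Hspd1 -0.33 ± 0.15, while Dnajb6, a class B protein that holds back aggregation and was named for its match, gave 0.26 ± 0.12, and none of these 3 passed (limma adjusted p = 0.133, 0.206 and 0.203). Hsph1 passed as lower (-0.76), and Chordc1, an HSP90 co-chaperone, gave -0.06 ± 0.14 (limma adjusted p = 0.802). Dnajb6 stood at 2.56, 2.73 and 2.78 in controls and at 2.84, 2.98 and 3.04 after UVB, higher on every UVB array, though 1 of its 4 tested probes had a negative value of -0.12.

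The ER stress response element, bound by ATF6 together with NF-Y, was searched as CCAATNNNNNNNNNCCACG on both strands. It was found in 3 members, Hspa5, Hsp90b1 and Dnajc3, in 4 genes of the ER list (Calr, Canx, Creld2 and Pdia6) and in 0.137% of genes with a window. Shown are the 3 members and the 2 list genes that passed, with the fixed letters in capitals, and for Hsp90b1 the match nearest the start.
Hspa5: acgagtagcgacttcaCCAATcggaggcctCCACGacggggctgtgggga
Hsp90b1: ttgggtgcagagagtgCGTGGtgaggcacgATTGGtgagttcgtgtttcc
Dnajc3: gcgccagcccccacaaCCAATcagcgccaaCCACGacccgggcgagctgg
Pdia6: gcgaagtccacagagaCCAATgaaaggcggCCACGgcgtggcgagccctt
Calr: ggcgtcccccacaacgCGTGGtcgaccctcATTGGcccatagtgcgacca
They lie at chr2:34772009-34772058 (Hspa5, plus strand), chr10:86705518-86705567 (Hsp90b1, minus), chr14:118937811-118937860 (Dnajc3, plus), chr12:17266475-17266524 (Pdia6, plus) and chr8:84847060-84847109 (Calr, minus). In Hsp90b1 and Calr the element reads in the reverse direction. All 7 genes with a match had negative log2 fold changes, and Pdia6 (-0.71) and Calr (-0.58) passed, while Hspa5 (-0.20), Hsp90b1 (-0.43), Dnajc3 (-0.23), Canx (-0.22) and Creld2 (-0.45) did not. Log2 fold changes were below 0 in 82.5% of all tested members, in 85% of the ER list and in 53.3% of all targets. The part of the element in these values was not tested. A match describes letters only, and binding was not measured.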

How the data were processed

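Per the labels, 0.2 µg of RNA from each of 3 control and 3 UVB mice was labelled with Cy3 for an Agilent array. The sample titles give group and replicate. The authors deposited 1 scanner file per array. Its spot intensity comes from Agilent Feature Extraction 10.7.1.1, per the submitters' processing notes, and no scaling between arrays is recorded, per the file headers. The authors also deposited a table of log2 values, used as an alternative. Its columns had a median of 4.95 and, sorted, differed by at most 0.00212, from which quantile normalization was inferred. No source used here says how it was made, and its scale and centring were inferred by comparison with each array (r of 0.99866 to 0.99997).

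Control spots and 135 to 274 outlier spots per array were dropped, a probe's spots were averaged, and log2 processed intensity was set relative to the 75th percentile of the array over non-control spots (a signal of 302 to 519). Of these spots, 54.9% to 63.3% were well above background per array, and 0 were saturated. Precision is limited by the number of arrays, 3 a group. A probe was tested where well above background on at least 3 of 6 arrays, and the tested probe of highest mean stood for its gene, which gave 24365 targets. The 2 groups were compared with limma 3.58.1 under R 4.3.3, by lmFit and eBayes without a covariate and two-sided, with Benjamini-Hochberg adjustment over all targets and a threshold of 0.05. The labels give 3 mice per group, so p-values set the group difference against the spread between mice within groups, moderated over targets by eBayes. With 1 array per mouse, differences between mice and noise of the arrays cannot be told apart. The 6 arrays shared 1 slide and 1 scan time, which leaves no slide to block on. The steps were tested on simulated data with changes of 1 and 2 on the log2 scale. Most changes of the members were smaller, and that test does not cover them.

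Of 55681 probes, 26582 were named through an accession in a RefSeq gene table (GRCm38.p6) and 3094 through a symbol or synonym, and 26005 kept the name in the files. Positions of probes were read from the files (mm9), and whether they lie in exons or untranslated regions was not analysed here. The members, lists, markers and rules were chosen with earlier results of these data known. Named are members that passed without overlap, 17 genes given by name (Hspa1b among them, which no probe names), members whose probes disagree in sign with at least 1 passing, and the 2 genes of smallest p among those that passed in each list. The lists' remaining genes that passed and genes with a promoter match are named in full, and all other genes given with values were chosen after those were seen. Alternatives were other scalings (quantile, median), normexp (offset 50), the deposited table, no filter or a stricter filter on dim probes, averaging the probes of a gene, each probe on its own, eBayes with trend and robust, the replicate number as a block, and leaving out each array.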

Additional observations from a re-analysis of the deposited data

How the results depend on the processing

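All 10 members that passed kept their sign under every alternative run, and the median of the members stayed below 0, moving to -0.409 with median centring. With median centring 1 member and 0 other chaperone genes were higher. With normexp, 4 members were higher and 17 lower, 2 other chaperone genes were higher, and 2554 of all targets were higher. Without a filter on dim probes, 36095 targets were tested, and the same 63 members and 72 other chaperone genes were counted. Of these, 1 member was higher and 1 lower, and 0 other chaperone genes were higher and 3 lower. Of all targets, 1061 were lower. Testing only targets well above background on all 6 arrays gave 4 higher members, and eBayes with trend and robust gave 4 higher and 15 lower. Leaving out 1 array at a time gave 0 to 2 higher and 0 to 2 lower members, 0 higher and 1 to 4 lower other chaperone genes, and 469 to 959 higher and 391 to 1064 lower targets. The lower share of the members was 27% with normexp (10.4% of all targets) and 23.8% with trend and robust (10.5%). It was 1.59% without the filter (2.94% of all targets) and 0% to 3.17% without an array (1.6% to 4.37%). Causes of these differences were not tested, but the fits without an array hold fewer samples. With the replicate number as a block, 0 members were higher and 0 lower, 0 other chaperone genes were higher and 1 lower, and 473 of all targets were higher and 301 lower by the same limma test. The labels give no pairing of mice by number. Deviations of control and UVB arrays of the same number from their group means correlated at -0.108, -0.262 and -0.0795. No array correlated best with its own number. Deviations within a group sum to 0, which constrains these correlations, so they cannot show whether mice were paired. Over the named genes, 377 of the fits stayed on their side of the threshold, 124 no longer passed and 11 newly passed, all with unchanged direction where a call was involved. The 10 untested members were limited by signal at background.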
